A study of Mus musculus with 4 samples.

Results

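Of 4878 genes in the table, 61 were studied. They are a part of the genes for ribosome assembly factors and for subunits and initiation factors of RNA polymerases I and III. The rule that picks them is a pattern of gene symbols and uses no measured value, although it was set with earlier results of these data known. By known role, 28 act on the small subunit, 20 on the large subunit and 5 in small nucleolar ribonucleoproteins (snoRNPs), 3 belong to Pol I and 4 to Pol III, and the remaining gene is Mybbp1a. Their mRNA was compared in mouse embryonic fibroblasts (MEFs), connective tissue cells cultured from embryos, between 2 libraries from cells transfected with a Si-Negative control and 2 from cells transfected with Si-eIF1A (X+18), an siRNA against a translation initiation factor that helps the small subunit find the start codon. The label does not explain the bracket. All cells were labelled as passages 5 to 8, were grown in 10 cm plates and were transfected with Lipofectamine RNAimax. Bulk MARS-seq, which counts the 3′ ends of polyadenylated RNA, gave the values, and the labels name no strain, age, batch or date and leave unsaid if the replicates were separate cultures. The p-values therefore measure the spread between these libraries, which may be technical. Eif1a and Eif1ax were not analysed here, so the depth of the knockdown was not checked.

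Ribosomes are made in the nucleolus. Pol I transcribes the long precursor of most ribosomal RNA there, and Pol III transcribes the short remaining ribosomal RNA and the tRNAs. Assembly factors then fold, cut and modify the precursor, snoRNPs guide methylation and pseudouridylation, and the small and large subunits mature along separate routes before export to the cytoplasm. Growing fibroblasts need these genes, and their transcription is known to follow growth signals.

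Each library held 2152331 to 2595625 reads over all genes in the table, as recovered from the normalised counts. Vim, Fn1 and S100a4 were the only ones of 11 fibroblast markers analysed, and their summed normalised counts were 17548 to 23010 in controls and 9879 to 12562 in knockdowns. Vim, which makes up most of that sum, was 1.88-fold lower (adjusted p = 0.0105) and S100a4 6.64-fold lower (adjusted p = 3.74e-08), and Fn1 did not pass (log2 −0.08, adjusted p = 0.845). None of 16 markers of epithelial, endothelial or macrophage identity was analysed here, and the part of any change in cell makeup in the results was not tested. In bulk samples, fewer cells of a type and less RNA per cell cannot be told apart.

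Most of these genes rose in the knockdown. Of 59 members tested, 41 were higher (69.5%), 1 was lower and 17 did not pass, against 15.9% of all 4605 tested genes called higher and 21.6% called lower (limma on log2(normalised count + 1), Benjamini-Hochberg adjusted p under 0.05 over all tested genes). A rise of at least 2-fold was called in 34 members, against 9.84% of all tested genes. Both knockdown libraries lay above both control libraries in 49 of the 59, against 32.4% of all tested genes. The median log2 fold change was 1.36 over the members and −0.01 over all tested genes. With the 4 libraries scaled to equal totals, the median of all genes shifted to 0.34 and that of the members to 1.69, so the gap between them was 1.37 as deposited and 1.35 at equal totals. In that setting 47 members were higher, with Nol12, Emg1, Nol6, Dkc1, Polr1b and Polr3a added, and none was lower, against 1300 of all tested genes higher and 603 lower. On recovered reads, edgeR called 42 members higher and 1 lower, against 17.5% and 19.7% of all genes. DESeq2 called 38 higher and 1 lower, against 14.3% and 19.1% of 4337 genes with an adjusted p. The member that fell was Rrp1. On the read scale, the 61 genes held 0.359% and 0.344% of the analysed reads in controls 1 and 2 and 0.759% and 0.889% in knockdowns 1 and 2.

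**Figure D1:**
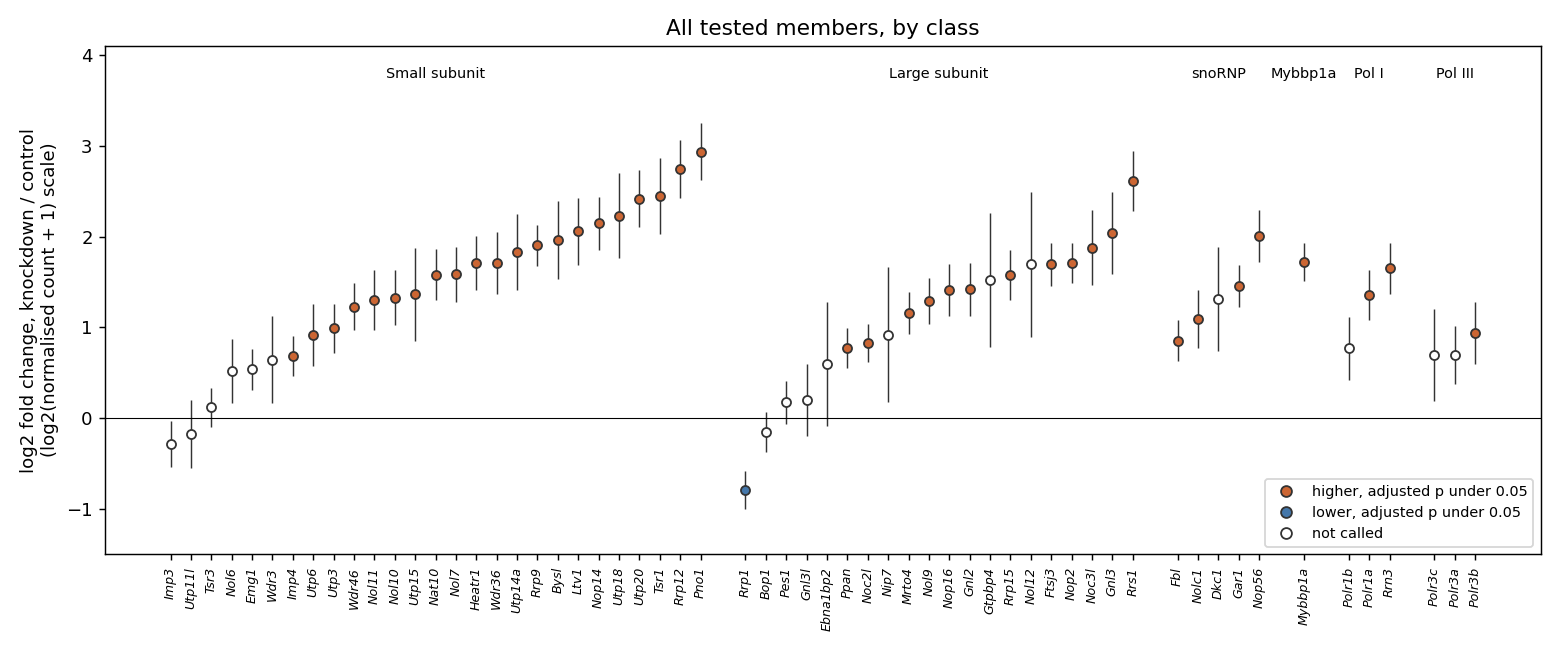
Log2 fold change of each of the 59 tested members (knockdown over control, on the log2(normalised count + 1) scale, vertical axis), grouped by class and sorted within it, with bars of 1 standard error from the limma fit and 2 libraries per group. Filled orange points passed as higher and the blue point, Rrp1 at −0.79, as lower; Pno1 was highest at 2.94, and the open points did not pass.

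Since these genes moved together, the DNA around their start sites was read from RefSeq (GRCm38.p6, the assembly behind mm10), in windows of 250 bases before and 50 bases after the start. Windows were matched for 49 of the 61 members. Bop1, Fbl, Gnl2, Gnl3l, Nol6, Polr3a, Rrp12, Rrs1, Tsr3, Utp11l, Utp6 and Wdr36 were not matched. The E-box CACGTG, a letter pattern that MYC and related factors are known to bind, was found in 14 of 49 (28.6%), in 13.4% of 3678 other tested genes and in 7.15% of all 32851 windows. For every motif, a gene was counted if any of its windows held the letters. The share of all windows counts single windows, so it is not the same measure as the shares of genes. Among members with a window it was in 11 of 35 called higher and in 2 of 12 tested and not called higher. These counts are small and their difference was not tested. The lines below show the 60 bases around the upstream E-box nearest the start for members called higher whose stretch lies outside the annotated transcript. They are written 5′ to 3′ on the strand of the gene, with CACGTG and the ETS-type letters CCGGAAG or their reverse CTTCCGG in capitals.
Rrn3: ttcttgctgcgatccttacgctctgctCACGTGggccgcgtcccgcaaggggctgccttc
Nop2: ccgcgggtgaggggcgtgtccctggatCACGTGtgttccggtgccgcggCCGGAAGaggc
Utp18: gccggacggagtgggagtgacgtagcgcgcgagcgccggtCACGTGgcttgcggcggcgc
Nol11: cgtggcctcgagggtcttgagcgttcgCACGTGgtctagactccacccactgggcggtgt
Imp4: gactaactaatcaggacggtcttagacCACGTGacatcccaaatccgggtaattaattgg
The stretches lie at chr16:13780624-13780683 (plus strand), chr6:125131796-125131855 (plus), chr11:93885767-93885826 (minus), chr11:107189392-107189451 (minus) and chr1:34439681-34439740 (plus). Counted with −1 as the base before the start, their E-boxes begin at −48 in Rrn3, −60 in Nop2, −20 in Utp18, −43 in Nol11 and −121 in Imp4. Rrn3 has another at −215, and Wdr46 has an E-box at −12. In Pno1, Utp20, Ltv1, Tsr1 and Mybbp1a the letters lie after the start. Members not called higher hold them too. Polr3c has an E-box at −237, and in Pes1 and the untested Polr3e the letters lie after the start. For comparison, these are the last 60 bases before the start of Pno1, the member of largest rise (chr11:17211590-17211649, minus strand), and of Rrp1, the member that fell (chr10:78413044-78413103, minus strand), neither of which holds either pattern in capitals.
Pno1: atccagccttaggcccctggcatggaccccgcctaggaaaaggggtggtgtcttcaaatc
Rrp1: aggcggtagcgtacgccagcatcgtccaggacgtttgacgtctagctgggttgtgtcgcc
The ETS-type letters, searched on both strands like the rest, were in 22 of 49 members (44.9%), in 23.9% of other tested genes and in 8.86% of all windows. The GC box GGGCGG was in 33 members (67.3%), 75.4% of other tested genes and 35.7% of windows. The core TGATGNAA of the amino acid response element, which ATF4 is known to bind, was in 3 members (6.12%), 2.64% of other tested genes and 3.97% of windows. The cyclic AMP response element TGACGTCA was in 1 member (2.04%), 3.64% and 1.79%. Split as for the E-box, the ETS-type letters were in 17 of 35 members called higher and 5 of 12 not called higher. The GC box was in 24 and 7 of these, the amino acid response core in 1 and 2, and the cyclic AMP element in 1 and 0. None of these splits was tested. Each motif was counted on its own, with overlaps kept. These are counts of letters and not of bound sites.

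**Figure D2:**
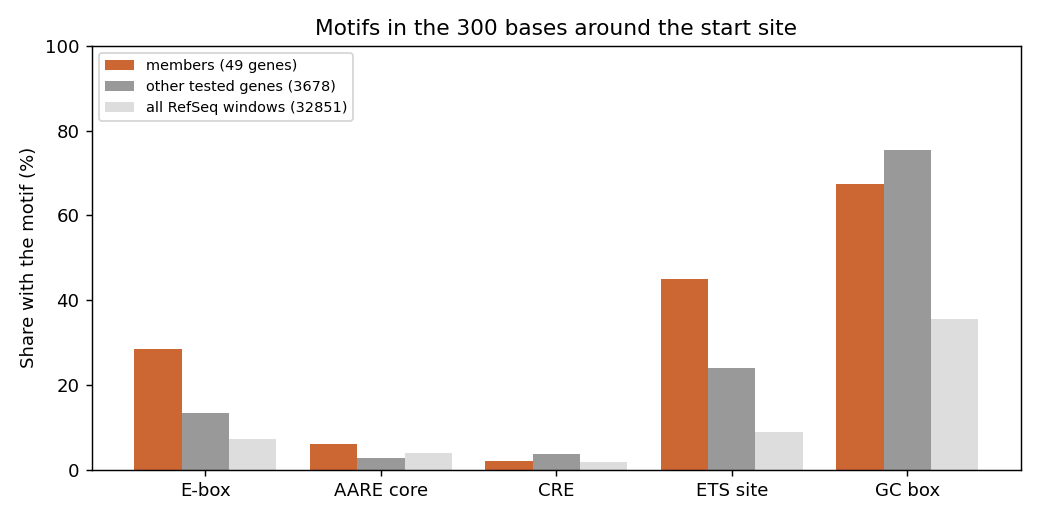
Share of genes or windows (vertical axis, percent) that hold each of the 5 motifs on either strand, for the 49 members with a RefSeq window, the 3678 other tested genes and all 32851 windows (AARE, amino acid response element; CRE, cyclic AMP response element). The E-box is in 28.6% of members and 13.4% of other tested genes, and the GC box in 67.3% and 75.4%.

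Most small subunit factors rose. Of 28 present, 27 were tested, 21 rose and none fell, against 15.9% of all tested genes higher and 21.6% lower. The median log2 fold change of the 27 was 1.58. Pno1, an RNA-binding factor that stays on the small subunit precursor until late in the cytoplasm, had 20.7 and 33.3 normalised counts in controls and 186 and 232 in knockdowns (7.66-fold, log2 2.94 with a standard error of 0.31, adjusted p = 7.33e-07). Its lowest knockdown library was thus far above its highest control library. Pno1 and the genes given by library below in this paragraph were picked for groups that do not overlap. Rrp12, which helps export pre-ribosomes from the nucleus, went from 19.7 and 21.1 to 125 and 161 (6.69-fold, adjusted p = 2.52e-06). Utp20, a very large scaffold protein of the small subunit processome, the nucleolar particle in which the precursor is first folded and cut, went from 64 and 32.5 to 213 and 289 (5.34-fold, adjusted p = 8.49e-06). Nop14, another processome protein, went from 58.1 and 39.8 to 181 and 258 (4.42-fold, adjusted p = 1.4e-05). Rrp9, a protein of the snoRNP that pairs with the precursor in the processome, went from 145 and 140 to 505 and 569 (3.74-fold, adjusted p = 2.53e-06). The control libraries of Rrp9 differed by far less than the groups did.

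Factors known from late small subunit maturation were looked at next, a grouping made after the values were seen. Of 6 such members, Pno1, Rrp12, Bysl, Ltv1 and Tsr1 rose and Tsr3 did not pass. Of all tested genes 15.9% were called higher, and of the 27 tested small subunit members 21 were. Whether they differ from the other small subunit genes was not tested. Tsr1, a GTPase-like protein that blocks premature initiation on the precursor, went from 10.8 and 9.74 normalised counts in controls to 50 and 72.7 in knockdowns (5.44-fold). Ltv1, an export and assembly factor, went from 16.7 and 14.6 to 64.6 and 72 (4.16-fold). Bysl, which encodes bystin, went from 10.8 and 30 to 82.3 and 65.9, a 3.90-fold rise. Leaving out control replicate 1 made it 2.41-fold, and leaving out control replicate 2 made it 6.31-fold. Tsr3, which modifies a base of the small subunit RNA, had 285 and 305 in controls and 321 and 319 in knockdowns (adjusted p = 0.714). Of the late kinases outside the members, Riok1 had 27.6 and 21.1 in controls and 33.1 and 49.6 in knockdowns (adjusted p = 0.159), and Riok2 was too low to test. Nob1, the nuclease of the last cut, was not analysed here.

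The processome is built of subcomplexes, grouped here after the values were seen, and differences between them were not tested. The calls below stand beside 15.9% of all tested genes called higher and 21 of the 27 tested small subunit members. In UTP-A, the part tied to transcription of the precursor, Heatr1 rose 3.27-fold, Utp15 2.57-fold and Nol11 2.47-fold, which are its 3 genes among the members. Cirh1a, a UTP-A gene outside the members, rose 1.66-fold (adjusted p = 0.0197). In UTP-B, Utp18 rose 4.69-fold, Wdr36 3.27-fold and Utp6 1.88-fold. Wdr3 had 15.7 and 13.8 in controls and 17 and 32.6 in knockdowns, short of the threshold (adjusted p = 0.319). Pwp2 and Tbl3, UTP-B genes outside the members, did not pass either. Pwp2 had 92.5 and 121 in controls and 167 and 164 in knockdowns (adjusted p = 0.0571). Tbl3 had 431 and 358 in controls and 341 and 327 in knockdowns (adjusted p = 0.432). The groups overlapped in neither, with Pwp2 higher and Tbl3 lower in knockdowns. Imp4 and Imp3 are partners in a complex that pairs the guide RNA with the precursor. Imp4 rose 1.61-fold from 233 and 231 to 402 and 349, and Imp3 had 362 and 334 in controls and 377 and 215 in knockdowns (adjusted p = 0.404). The control values of Imp3 lay between its knockdown values. The calls of Imp4, Nol11, Utp3, Utp6 and Utp15 were lost in at least 1 other setting.

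The other small subunit members called higher were Nat10, an RNA acetyltransferase (2.99-fold), Nol7 (3.0-fold), Utp14a (3.56-fold), Nol10 (2.51-fold), Wdr46 (2.34-fold) and Utp3 (1.98-fold). Emg1, a methyltransferase of the small subunit RNA, had 280 and 235 in controls and 404 and 343 in knockdowns and missed the threshold (adjusted p = 0.0674), although its groups did not overlap. Emg1 passed under TMM scaling (adjusted p = 0.0415), at equal totals (0.00155), in edgeR (0.0388) and without control replicate 1 (0.0397). Nol6 had 54.1 and 41.4 against 49.2 and 94.4 (adjusted p = 0.265) and Utp11l 43.3 and 30 against 33.9 and 29.9 (adjusted p = 0.754). Nop9 was too low to test, with 1 read in each control library and 6 and 3 in the knockdowns, a ratio of 3.73 once scaled (95% exact counting interval 0.772 to 35.5).

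**Figure D3:**
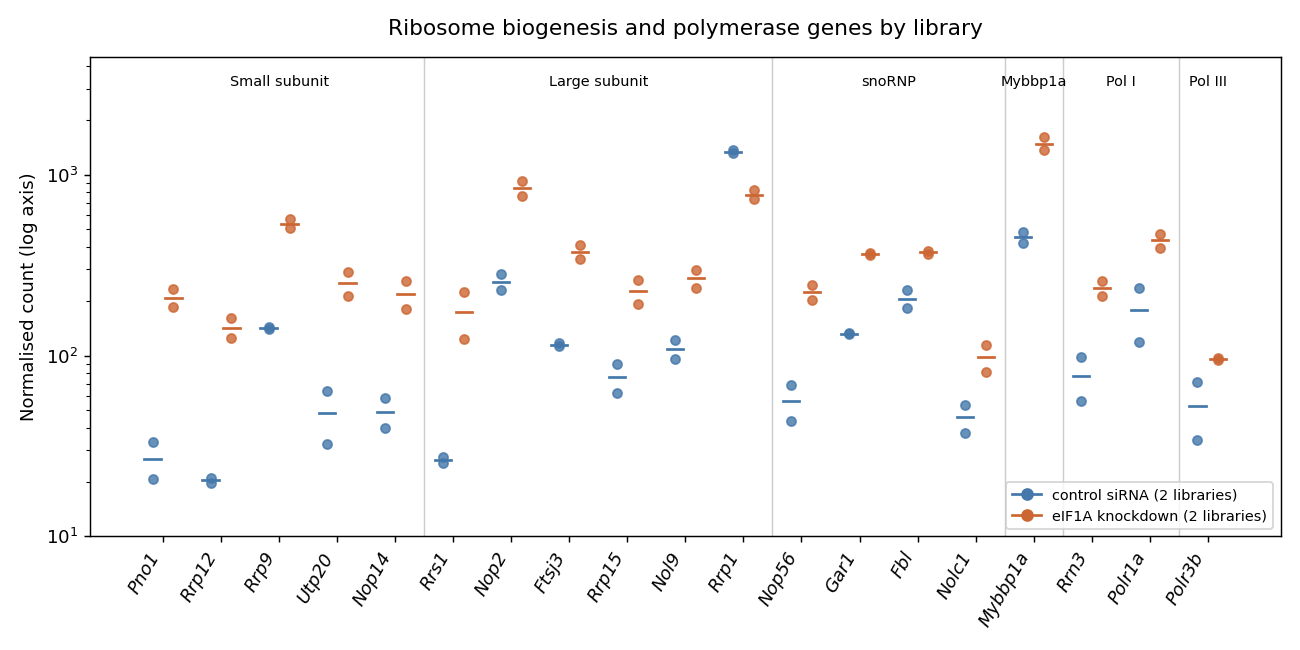
Normalised counts (log axis) of 19 members in each of the 2 control and 2 knockdown libraries, with a short line at each group mean; up to 5 called members per class with the smallest p are shown, picked for groups that do not overlap and a mean of at least 20, and Rrp1. Rrs1 went from a mean of 26.6 to 175, Mybbp1a from 451 to 1489 and Rrp1 from 1343 to 778.

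Large subunit factors rose in 12 of 20 cases and fell in 1, against 15.9% of all tested genes higher and 21.6% lower. The median log2 fold change of the 20 was 1.35. Rrs1, which brings a ribosomal protein and RNA complex into the precursor, went from 25.6 and 27.6 normalised counts in controls to 124 and 226 in knockdowns (6.11-fold, log2 2.61 with a standard error of 0.33, adjusted p = 5.92e-06). The knockdown libraries of Rrs1 differed by more than its controls did, and both were above them. Nop2, a methyltransferase of the large subunit RNA whose upstream sequence is shown above, went from 283 and 230 to 763 and 922 (3.27-fold, adjusted p = 8.19e-06). Ftsj3, another RNA methyltransferase, went from 117 and 113 to 342 and 409 (3.24-fold, adjusted p = 1.72e-05). Rrp15 went from 89.6 and 62.5 to 193 and 263 (2.98-fold, adjusted p = 1.80e-04). Nol9, a polynucleotide kinase that prepares the spacer for trimming, went from 95.5 and 122 to 236 and 300 (2.45-fold, adjusted p = 5.04e-04). These genes were picked for groups that do not overlap. Over the 20 large subunit genes, the groups overlapped in 5, against 1481 of all 4605 tested genes. Both knockdown libraries lay above both controls in 14 of the 20 and below them in 1, against 32.4% and 35.5% of all tested genes.

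Of the nucleolar GTPases, Gnl3, also called nucleostemin, rose 4.11-fold from 7.87 and 10.6 to 41.2 and 40.1, and Gnl2 rose 2.67-fold from 40.4 and 57.6 to 130 and 131. Their relative Gnl3l had 24.6 and 30.8 in controls and 37.1 and 27.2 in knockdowns, short of the threshold (adjusted p = 0.733). The groups of Gnl3l overlapped. Gtpbp4 had 2 and 5 reads in controls and 11 and 17 in knockdowns, a scaled ratio of 3.32 (95% exact counting interval 1.42 to 9.0), and did not pass in limma (adjusted p = 0.115), except without the trend (0.0258). The remaining large subunit members called higher were Noc3l (3.68-fold) and Noc2l (1.78-fold), Nop16 (2.66-fold), Mrto4 (2.23-fold) and Ppan (1.70-fold), of which Noc2l and Noc3l are known partners. The call of Ppan was lost in limma without its trend (adjusted p = 0.0563) and without knockdown replicate 2 (0.11).

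Several large subunit genes did not pass. Bop1 and Pes1, partners in the PeBoW complex that is needed to process the large subunit RNA, had overlapping groups. Bop1 had 1061 and 757 normalised counts in controls and 797 and 819 in knockdowns (log2 −0.15 with a standard error of 0.22, adjusted p = 0.63). Pes1 had 224 and 275 in controls and 244 and 324 in knockdowns (log2 0.18 with a standard error of 0.24, adjusted p = 0.597). Wdr12, the other partner, was not analysed here. The others were low. Nol12 had 6 and 1 reads against 11 and 18, with a scaled ratio of 3.44 (1.47 to 9.29), and Nip7 had 10 and 3 reads against 22 and 9, with a ratio of 1.98 (1.01 to 4.12). Leaving out a library moved both: Nol12 was 6.31-fold higher and passed without control replicate 1 (adjusted p = 0.00814) and was 1.66-fold higher without control replicate 2. Nip7 was 3.36-fold and 1.07-fold higher without control replicates 1 and 2, and 1.17-fold and 3.07-fold higher without knockdown replicates 1 and 2, and passed in none of these. Ebna1bp2 had 8 and 5 reads in controls and 15 and 10 in knockdowns.

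Rrp1 was the exception in direction. It encodes a nucleolar protein of large subunit precursors and had 1318 and 1369 normalised counts in controls against 821 and 736 in knockdowns. The log2 fold change was −0.79 with a standard error of 0.21 (1.73-fold lower, adjusted p = 0.00554), and the groups did not overlap. Its sign was negative in all 15 other settings planned, but the call was lost at equal totals (log2 −0.44, adjusted p = 0.0921), in limma without its trend (0.0531), without knockdown replicate 2 (0.0568) and with the trend on GC content removed (0.119).

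Of 5 snoRNP genes 4 rose and none fell, against 15.9% of all tested genes higher and 21.6% lower. In all 5 both knockdown libraries were above both controls, against 32.4% of all tested genes. Nop56, a core protein of the box C/D particles that guide methylation, went from 43.3 and 69 to 203 and 245 (4.02-fold, adjusted p = 2.24e-05). Fbl, which encodes fibrillarin, the methyltransferase of the same particles, went from 183 and 230 to 363 and 381 (1.81-fold, adjusted p = 0.00619). In the box H/ACA particles, which guide pseudouridylation, Gar1 went from 132 and 133 to 360 and 371 (2.74-fold, adjusted p = 6.88e-05). Dkc1, their pseudouridine synthase, had 5.91 and 7.3 in controls and 14.5 and 21.7 in knockdowns, short of the threshold (adjusted p = 0.0775, and 0.0258 without the trend). Nolc1, a chaperone of both kinds of particle, went from 37.4 and 53.6 to 80.7 and 115 (2.13-fold, adjusted p = 0.0115). Without knockdown replicate 2 only 2 of the 5 were called, since Fbl (adjusted p = 0.05) and Nolc1 (0.172) were lost.

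Mybbp1a, a nucleolar protein that binds transcription factors and Pol I components, went from 483 and 418 to 1365 and 1613 normalised counts (3.30-fold, log2 1.72 with a standard error of 0.21, adjusted p = 4.89e-06). Both knockdown libraries were far above both controls, although groups that do not overlap were a condition for giving a gene by library.

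Pol I genes rose in 2 of 3 cases, against 15.9% of all tested genes. Rrn3, the initiation factor that makes Pol I competent to start and whose upstream E-box is shown above, went from 98.4 and 56 normalised counts to 214 and 258 (3.13-fold, log2 1.65 with a standard error of 0.29, adjusted p = 1.74e-04). Polr1a, the largest Pol I subunit, went from 236 and 119 to 395 and 473 (2.56-fold, adjusted p = 7.58e-04). Polr1b, the second-largest, had 31.5 and 28.4 against 51.7 and 51.6 (1.70-fold higher in the mean), which did not overlap and did not pass (adjusted p = 0.0923).

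Of 3 Pol III genes tested, 1 rose and none fell (median log2 0.69), against 15.9% of all tested genes higher and 21.6% lower. Polr3b, the second-largest subunit, went from 71.8 and 34.1 to 94.4 and 97.1 (1.91-fold, adjusted p = 0.0365). This call was fragile: without control replicate 2 the rise was 1.33-fold (adjusted p = 0.364), and it was also lost without either knockdown replicate, in DESeq2, in limma without its trend and with the GC trend removed. Polr3a, the largest subunit, had 40.4 and 45.4 against 73.5 and 66.6 (adjusted p = 0.0921) and Polr3c 18.7 and 8.93 against 18.6 and 25.1 (adjusted p = 0.306). Polr3e had 1 read in each control and 1 and 6 in the knockdowns, too few to test. Whether Pol I and Pol III genes differed in response was not tested.

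The polymerase genes outside the 61 members were set beside these from lists of known subunits. Of the subunits shared by all 3 polymerases, 3 of 5 were present and 2 tested, and neither passed. Polr2h had 52.2 and 45.4 against 91.2 and 72.7 (adjusted p = 0.0692), and Polr2f 3259 and 3114 against 3575 and 2926 (adjusted p = 0.953). Both depended on the setting. Polr2h passed under TMM scaling (adjusted p = 0.0483), at equal totals (0.00796) and in edgeR (0.0465), and Polr2f passed with the GC trend removed (log2 0.71, adjusted p = 0.0315). Of 8 subunits found only in Pol II, 4 were present and tested. None of these rose and 1 fell, against 15.9% of all tested genes higher and 21.6% lower. Polr2a, the largest subunit, fell from 1782 and 1418 to 774 and 650 (2.24-fold, adjusted p = 3.43e-04), and Polr2g did not pass (adjusted p = 0.30). The largest subunits of Pol I and Pol II thus changed in opposite directions, each past the threshold, which is a comparison of 2 genes. Of 18 Pol III factors 9 were present and 8 tested, and 2 rose and none fell, against 15.9% of all tested genes higher. Both that rose encode subunits of TFIIIC, the factor that binds tRNA gene promoters, Gtf3c6 2.60-fold and Gtf3c2 1.95-fold. The other TFIIIC subunits tested did not pass and went both ways. Their log2 fold changes were −0.53 for Gtf3c5 (adjusted p = 0.0605, groups not overlapping) and −0.44 for Gtf3c1 (adjusted p = 0.209). Gtf3c3 was at 0.80 (adjusted p = 0.28, groups not overlapping). Brf1, a Pol III initiation factor, was at −0.63 (adjusted p = 0.0697, groups not overlapping). The calls of Gtf3c6 and Gtf3c2 were lost without knockdown replicate 2 (adjusted p = 0.133 and 0.0576). Of 9 Pol I factors only Taf1d was present, under the filter on low values.

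**Figure D4:**
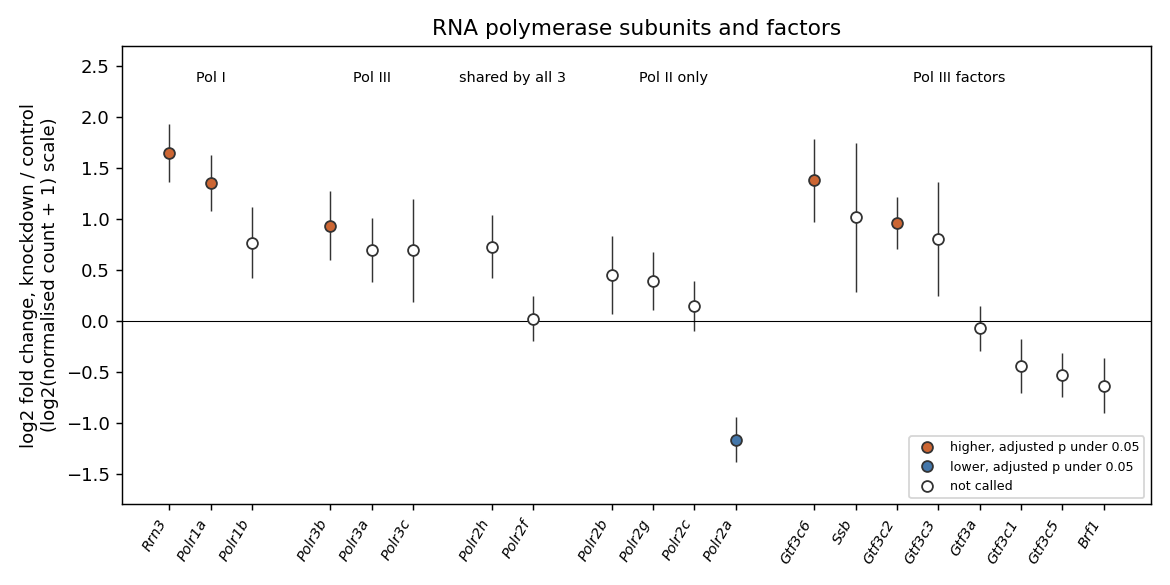
Log2 fold change (knockdown over control, log2(normalised count + 1) scale, vertical axis) with bars of 1 standard error for each tested subunit of Pol I (with Rrn3), Pol III, the subunits shared by all 3 polymerases, those of Pol II only and Pol III factors. Rrn3 (1.65) and Polr1a (1.36) lie above all tested subunits of Pol III and Pol II, and Polr2a (−1.16) lies below them. Polr1b (0.77) lies below Polr3b (0.94), and the Pol III factor Gtf3c6 (1.38) lies above Polr1a. Open points did not pass.

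Assembly genes with other names also rose where they passed. Of 16 RNA helicases known to act in ribosome assembly, 11 were present and tested, and 5 rose and none fell (median log2 1.06). Of all tested genes, 15.9% were called higher and 21.6% lower, with a median of −0.01. Ddx21, a nucleolar helicase that binds Pol I and snoRNA, went from 15.7 and 12.2 to 63.8 and 122 (6.0-fold, adjusted p = 5.28e-05), and Ddx27 rose 2.08-fold, a call lost without knockdown replicate 2 (adjusted p = 0.0851). Of 56 further assembly factors, 39 were present and 36 tested, and 20 rose and none fell (median log2 0.77), against the same shares of all tested genes. Lyar, a nucleolar cell growth regulator, rose 4.60-fold from 45.3 and 60.9 to 203 and 297, and Rcl1, which takes part in cutting the small subunit precursor, rose 3.28-fold.

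The members were also compared by level. Split at the median of their mean values over all libraries, 24 of 30 members at or above it and 17 of 29 below it were called higher, with medians of 1.38 and 1.33. Over all tested genes on the same sides of that level, 16.2% and 15.5% were called higher, with medians of −0.19 and 0.28. GC content of the longest coding transcript had a median of 50.3% in the 61 members (41.1% to 59.8%) and of 51.0% in all genes matched to the annotation. The last 1000 bases of 15 members are overlapped by exons of a gene on the opposite strand, so where counting ignored strand their reads cannot be told apart. For Bysl that gene is Ccnd3, which fell (log2 −0.61, adjusted p = 0.0311), and for Nop56 it is Idh3b (log2 −0.14, adjusted p = 0.638). Lgals8, opposite Heatr1, rose with it (log2 1.59, adjusted p = 0.01). For members that did not pass, Mroh1 opposite Bop1 fell (log2 −0.61, adjusted p = 0.0411), as did Lpcat3 opposite Emg1 (log2 −0.95, adjusted p = 0.00204). Mpp1, opposite Dkc1, did not pass (log2 −0.21, adjusted p = 0.541). Gtpbp4, Mrto4 and Wdr46 have annotated pseudogenes named after them that can share reads, so their counts are uncertain. Pseudogenes under other names were not searched for in any member.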

How the data were processed

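The 4 bulk MARS-seq libraries, 2 control and 2 knockdown, were grouped by title. The deposited values are a signal per gene that the authors normalised, as normalised counts, as the file is named. STAR, HTSeq, DESeq2, cutadapt 1.8.3, bcl2fastq 2.17.1.14 and mm10 are listed, per the submitters' processing notes, without a role or order. Annotation, strand, use of molecular identifiers and gene selection were not given in the sources used here. Each column held whole multiples of 1 step (100% within 0.01 read), so reads were recovered. No gene was at 0.

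Members and lists were chosen with earlier results of these data known. Tests used limma 3.58.1 (R 4.3.3; eBayes with trend) on log2(value + 1) for the 4605 genes whose mean over libraries reached 5. Folds are on that scale. Up to 5 called members per class of smallest p, with a mean of at least 20 and no overlap of groups, were given by library, and every member that fell, did not pass or was under the filter was named. In other lists up to 2 genes of smallest p were named, with others of a described complex or step added after seeing the values. The further small subunit and GTPase values and the subgroups were chosen after seeing the values. Ratios of summed reads have exact (Clopper-Pearson) 95% intervals for counting error only. The limma script was tested on simulated data. Alternatives included edgeR 4.0.16 and DESeq2 1.42.0 on recovered reads. Symbols were matched to GENCODE M21, which is on mm10, for 4873 of 4878 genes, 132 by an older symbol.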

Additional observations from a re-analysis of the deposited data

How the results depend on the processing

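Of the 42 members called, 32 were called in the same direction under all 15 other settings that gave them a value, and none of the 42 changed sign. The count of members higher ran from 33 to 41 when a library was left out, and was 42 in edgeR (807 higher and 909 lower of 4605 genes), 38 in DESeq2 (620 and 828 of 4337), 39 in the fit with the replicate number as a block and 35 with the GC trend removed. The median of the members was 1.69 at equal totals and 1.28 to 1.47 when a library was left out. Settings that moved counts over 1.5 times were these, and the cause was not tested. All genes called higher numbered 1300 at equal totals and 438 to 758 when a library was left out, the lowest without knockdown replicate 2 and 491 without knockdown replicate 1. All genes called lower numbered 603 at equal totals, 655 in limma without its trend, 575 with the GC trend removed and 715 to 987 without a library. Members lower, and large subunit members lower, numbered 0 at equal totals, without the trend and with the GC trend removed, and 0 to 1 without a library. Pol III members higher numbered 2 at equal totals, 0 without the trend, in DESeq2 and with the GC trend removed, and 0 to 1 without a library. Members of snoRNPs higher numbered 2 to 4 without a library.

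Signs flipped only in genes that did not pass. The log2 fold change of Bop1 was 0.20 at equal totals, 0.39 with the GC trend removed and −0.39 to 0.093 when a library was left out. Imp3 was 0.063 at equal totals, 0.046 with the GC trend removed and −0.69 to 0.12 without a library. Utp11l was 0.17 at equal totals and −0.43 to 0.082 without a library. Gnl3l was −0.29 with the GC trend removed and −0.019 to 0.42 without a library. Pes1 ran from −0.027 to 0.38 and Polr2f from −0.12 to 0.17 without a library. Same-numbered libraries deviated with a correlation of −0.13, and the numbers do not show shared cultures. The replicate block gave 39 members higher, losing Utp15 (adjusted p = 0.0692) and Utp6 (0.0707), and the crossed pairing, added after seeing the data, gave 42. With 2 libraries per group, a left-out library leaves a lone sample whose spread is taken from the other group.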
